A study of Rattus norvegicus with 38 samples.

Results

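Fatty acid oxidation was followed through 35 genes, listed by symbol, in the lungs of rats that breathed cigarette smoke or room air. The list was chosen with earlier results of these data known. Of the 35 genes, 34 were measured among 14217 genes in all; Acaa1a, a peroxisomal thiolase, had only a probe set shared with Acaa1b and was not measured on its own. Each gene was read from the probe set annotated with exactly 1 symbol, the one of highest mean intensity where a gene had several. The 38 animals were female N:NIH rats, 34 weeks old, of 2 lines, HCR and LCR, selected for high and for low inborn capacity to exercise. In each line, rats breathed cigarette smoke or, as sham, room air on 5 days per week, and lungs were collected at the end of 12 weeks. Sham groups had 7 rats and smoke groups 12 in either line, each rat with RNA from about 25 mg of whole lung on an Affymetrix rat array of its own. The labels name no altered allele and no agent other than smoke in any group. The design compares smoke with sham within a line, LCR with HCR within an exposure, and the smoke changes of the 2 lines with each other. A change is a difference between group means of log2(intensity + 16) ± its standard error, and dim genes appear to change less on this scale than they do. It was called when the limma p, adjusted over all 14217 genes, was under 0.05.

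Fatty acids enter a cell through carriers such as Cd36, are joined to coenzyme A by acyl-CoA synthetases and cross into mitochondria through the carnitine shuttle, whose outer-membrane enzyme Cpt1 sets the pace. Inside, acyl-CoA dehydrogenases, a hydratase, a second dehydrogenase and a thiolase shorten the chain step by step, electron transfer flavoprotein carries electrons to the respiratory chain, and peroxisomes handle chains that mitochondria do not. Nuclear receptors of the PPAR family and the coactivator Ppargc1a drive transcription of many of these genes. In lung, type 2 cells, macrophages and endothelial cells all burn fatty acids, and surfactant lipids are both made and broken down there.

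Before any result, 7 arrays need naming. Transcripts of muscle and fat stood out on 6 of them, as measured by the mean deviation of a marker list from all arrays on the log2 scale. HCR sham 0433 had a skeletal muscle mean of 4.59 (11 measured markers, other HCR sham arrays up to 0.01), a fat cell mean of 1.94 (8 markers, others up to 0.35) and a heart muscle mean of 2.10 (12 markers). LCR sham 0442 had a heart muscle mean of 3.96 against at most 0.78 on the other LCR sham arrays, and HCR smoke 0415, 0410, 0414 and 0417 had 3.77, 3.06, 2.06 and 1.50 against at most 0.64. HCR sham 0432 differed in RNA quality, with a 3' minus 5' difference of the Actb control probe sets of 2.06. The rest of its group gave 0.63 to 0.83 and the other groups 0.59 to 1.08. After 0433, array 0432 also had the highest heart muscle mean (1.05) and fat cell mean (0.35) of its group. The part of each of these features in the results without 0432 was not tested. The labelled tissue was checked on Sftpc, the surfactant protein of type 2 cells, whose intensity lay between 9830 and 10919 on all 38 arrays. These values lie near the highest intensity of the table, 11558, and 0433 and 0442 read 10000 and 9830. Sftpc therefore shows that lung was present but cannot measure how much other tissue came with it. Each group occupies its own run of array numbers, and order along those numbers therefore cannot be told apart from group.

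Of the 34 measured members, 28 have a promoter in the RefSeq table (build GRCr8). The promoters shown are those of Ppargc1a, Acad11, Hadhb, Eci1 and Ucp2, because the intensities of these genes did not overlap between smoke and sham in at least 1 line. Ppard was the other such member and has no entry in that table. Each run is the 250 bases before the listed start, 5′ to 3′, and capitals mark a motif match.
Ppargc1a, chr14:63634058-63634307, plus strand: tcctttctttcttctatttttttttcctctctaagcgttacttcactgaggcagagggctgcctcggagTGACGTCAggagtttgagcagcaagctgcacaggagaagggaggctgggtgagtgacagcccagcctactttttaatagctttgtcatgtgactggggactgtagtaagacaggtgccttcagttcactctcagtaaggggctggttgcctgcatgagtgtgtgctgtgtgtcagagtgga
Acad11, chr8:113559962-113560211, plus strand: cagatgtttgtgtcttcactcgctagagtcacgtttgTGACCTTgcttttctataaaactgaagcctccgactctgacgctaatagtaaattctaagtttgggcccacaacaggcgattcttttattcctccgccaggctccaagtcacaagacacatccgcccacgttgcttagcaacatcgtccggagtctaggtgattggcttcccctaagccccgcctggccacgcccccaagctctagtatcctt
Hadhb, chr6:31907501-31907750, minus strand: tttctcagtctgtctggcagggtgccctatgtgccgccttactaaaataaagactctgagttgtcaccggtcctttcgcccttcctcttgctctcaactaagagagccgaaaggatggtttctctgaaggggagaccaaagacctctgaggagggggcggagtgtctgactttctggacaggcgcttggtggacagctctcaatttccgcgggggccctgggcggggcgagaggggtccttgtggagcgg
Eci1, chr10:13961000-13961249, plus strand: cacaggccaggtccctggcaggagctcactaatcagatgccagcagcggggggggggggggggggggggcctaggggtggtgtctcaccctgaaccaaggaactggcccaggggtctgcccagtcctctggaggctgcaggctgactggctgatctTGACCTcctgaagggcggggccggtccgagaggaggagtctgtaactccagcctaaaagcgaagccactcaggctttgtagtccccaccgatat
Ucp2, chr1:164251123-164251372, plus strand: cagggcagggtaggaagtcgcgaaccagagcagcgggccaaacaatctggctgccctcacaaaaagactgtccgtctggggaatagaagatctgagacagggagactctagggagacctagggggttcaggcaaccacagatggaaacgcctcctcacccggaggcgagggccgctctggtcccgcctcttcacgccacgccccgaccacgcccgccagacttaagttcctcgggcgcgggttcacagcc

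The capitals in Ppargc1a are the cyclic AMP response element TGACGTCA, 181 bases before the start. Those in Acad11 are TGACCTT, the reverse strand of AAGGTCA, the longer site of estrogen-related receptors, 213 bases before the start. Those in Eci1 are TGACCT, the reverse strand of the nuclear receptor core AGGTCA, 94 bases before the start, while Hadhb and Ucp2 hold none of the motifs searched. On either strand, AGGTCA was found in 5 of the 28 member promoters (17.9%) and in 13.7% of all 27457 promoters of the same length. AAGGTCA, which contains AGGTCA, was found in 1 of 28 against 3.77% of all, TGACGTCA in 2 of 28 (Acadm and Ppargc1a) against 1.7%, and the PPAR direct repeat, made of 2 AGGTCA cores with any 1 base between them, in 0 of 28 against 0.0546%. A match is a description of letters and not a binding site. The table gives 1 start per gene, which for Ppargc1a, Acad11 and Hadhb lies inside the RefSeq span of the gene. Hadha and Hadhb start 301 bases apart on opposite strands, so the Hadhb run printed above lies wholly between their starts.

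In both lines, smoke lowered Ppargc1a and the enzymes Acadm, Echs1 and Eci1 and raised Cd36. The calls of Echs1 in both lines and of Cd36 in HCR were lost under some alternatives. More members fell than rose in HCR, and more rose than fell in LCR, where the share of members called was below that of all genes. In HCR, 16 members fell and 3 rose of 34, read against 48.0% of all 14217 genes called in that comparison, 30.4% lower and 17.7% higher. In LCR, 9 members rose and 4 fell, where 50.6% of all genes were called, 22.7% higher and 27.9% lower, against 38.2% of the members. The difference between the lines' smoke changes was called for 2 of the 34 members. The median change over the members was -0.18 in HCR (all genes -0.03) and 0.03 in LCR (all genes 0.00), with 27 of 34 members below 0 in HCR and 21 of 34 above 0 in LCR. The median member lay below its sham mean on 12 of 12 HCR smoke arrays (-0.30 to 0.00) and on 4 of 12 LCR smoke arrays (-0.14 to 0.18). The HCR sham mean includes array 0433, where the median member lay 0.52 above its mean over all arrays. On the other HCR sham arrays that deviation was -0.09 to 0.16. The count against a sham mean without 0433 was not taken. Fewer cells of a type and less RNA per cell cannot be told apart in whole lung.

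Another scaling of the arrays moved the split of all genes more than that of the members. Of all called genes, 36.8% were higher in HCR and 44.8% in LCR as deposited, and 53.1% and 64.8% after each array was centred on its median, a setting that called 4 members higher and 13 lower in HCR and 11 higher and 3 lower in LCR. Quantile normalization called 2 members higher and 13 lower in HCR and 9 higher and 5 lower in LCR. The split of all genes after quantile normalization is not given here.

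**Figure D1:**
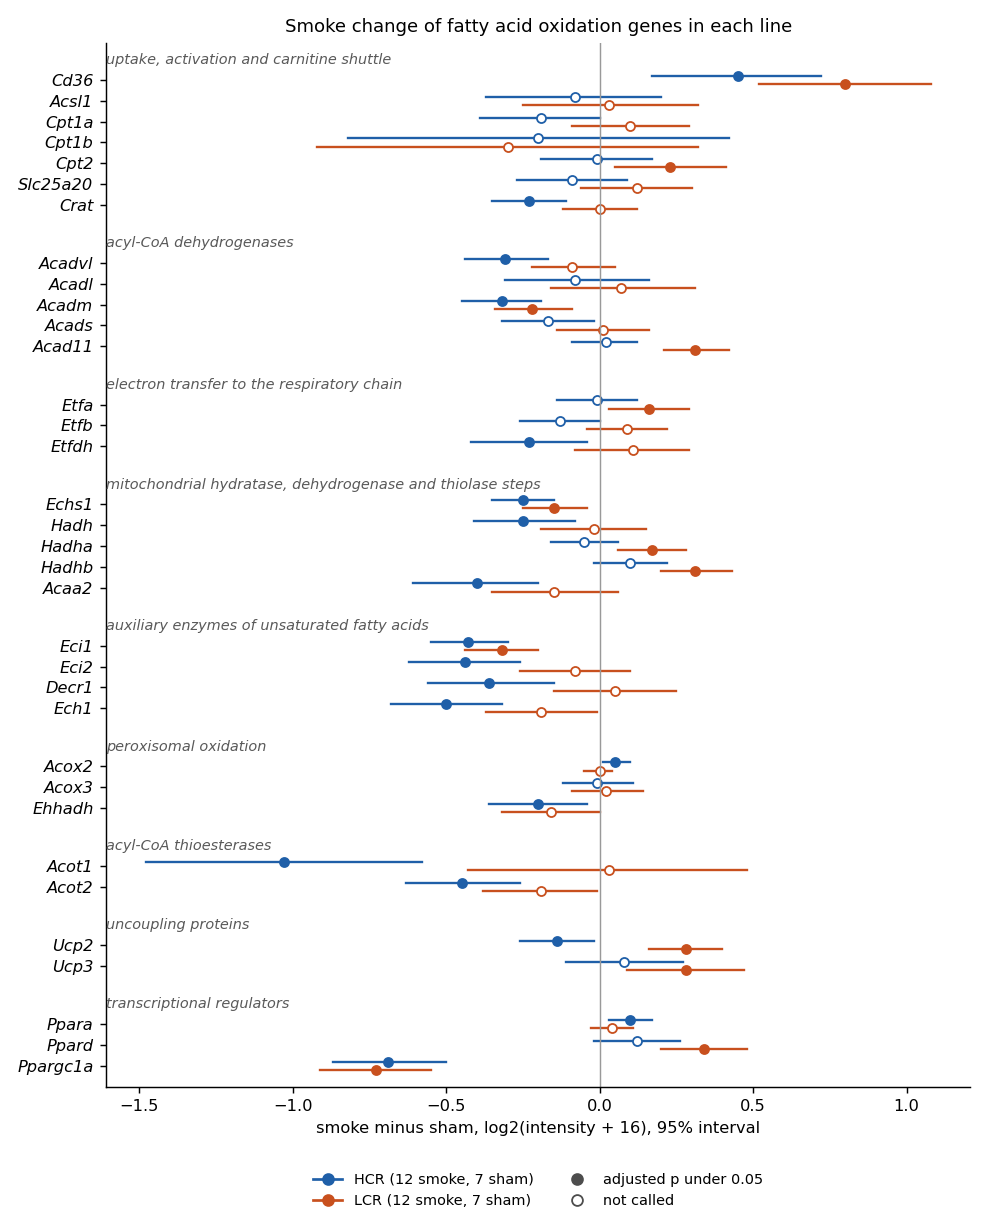
Change of each of the 34 measured genes between smoke and sham (x axis, log2(intensity + 16)), in HCR (blue) and LCR (orange), in blocks by role; bars are 95% intervals and filled points have an adjusted p under 0.05. Ppargc1a lies at -0.69 and -0.73, Cd36 at 0.45 and 0.80, and 30 of the 34 genes lie further left in HCR than in LCR.

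Other cell types moved with smoke too. The 8 measured macrophage markers had list means of -0.65 to -0.31 on HCR sham and -0.33 to 0.77 on HCR smoke arrays, and of -0.99 to -0.54 on LCR sham and 0.08 to 0.78 on LCR smoke arrays; 5 of 8 rose and 2 fell in HCR, and 6 rose and 1 fell in LCR. Of 9 endothelial markers, 8 fell in HCR and 9 in LCR, with list means of 0.11 to 0.33 and 0.16 to 0.45 under sham and of -0.39 to 0.02 and -0.34 to -0.06 under smoke. Of 7 type 1 cell markers, 7 fell in HCR and 6 in LCR, and of 10 type 2 cell markers 3 rose and 1 fell in HCR and 7 rose and 0 fell in LCR. Of 4 club and ciliated cell markers, 1 fell in HCR and 3 in LCR, with list means of -0.25 to 0.75 and 0.17 to 0.88 under sham and of -0.71 to 0.76 and -0.95 to 0.32 under smoke. No marker was listed at 0, the lowest intensity of the table being 2.09. The part of these cell types in the changes of the oxidation genes was not tested.

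Among the transcriptional regulators, Ppargc1a, the coactivator that promotes mitochondrial biogenesis and fatty acid oxidation, fell in both lines. HCR sham arrays ranged from 89.0 to 133 intensity units (median 106) and HCR smoke arrays from 38.0 to 84.7 (median 58.7). LCR sham arrays ranged from 84.5 to 126 (median 95.3) and LCR smoke arrays from 43.0 to 63.4 (median 54.6). Every smoke array lay below every sham array of its line. The change was -0.69 ± 0.09 (SE; 12 and 7 rats, adjusted p = 2.4e-07) in HCR and -0.73 ± 0.09 (adjusted p = 3.2e-08) in LCR, and all 3 Ppargc1a probe sets fell in both lines, the others by 0.99 and 0.51 on the log2 scale in HCR and by 1.07 and 0.49 in LCR. The difference between the lines' changes was -0.05 (95% interval -0.30 to 0.21, adjusted p = 0.885). In all, 1 member in HCR and 6 in LCR had groups that did not overlap, against 5.87% and 14.5% of all genes.

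Ppard, the broadly expressed PPAR, rose in LCR, from 74.9 to 87.6 under sham (median 82.4) to 94.8 to 131 under smoke (median 103), without overlap (0.34 ± 0.07, adjusted p = 0.000129). In HCR it changed by 0.12 ± 0.07 (adjusted p = 0.141), but was called higher without HCR sham 0432, its highest sham array (0.20, adjusted p = 0.00655), with the Actb difference as a covariate (0.23) and after quantile normalization (0.21). Ppara, the PPAR best known from liver, was near the bottom of the scale, with group means of 5.66 to 7.23 intensity units, and its called rise in HCR (0.10 ± 0.03, adjusted p = 0.013) is a difference between values of 4.23 to 7.27 and 5.97 to 9.30. The Ppara call was lost under 7 alternatives, among them quantile normalization, array weights, removal of the 6 arrays and each of the 3 covariate fits (0.02 to 0.09). Ppara changed by 0.04 ± 0.03 in LCR (adjusted p = 0.334).

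At uptake, activation and the carnitine shuttle, Cd36 was the member that rose most in both lines, whereas Cpt1a and Cpt1b passed the test in neither. Cd36, a scavenger receptor that takes up long-chain fatty acids and is carried by macrophages and capillary endothelium, ranged from 610 to 1027 (median 743) in LCR sham and from 1023 to 1464 (median 1367) in LCR smoke lungs. In HCR it ranged from 364 to 1169 (median 1112) under sham and from 1074 to 1522 (median 1245) under smoke. The LCR groups met only at 1023 to 1027, while the HCR groups overlapped and the lowest HCR sham value was that of array 0432. Cd36 rose by 0.80 ± 0.14 in LCR (adjusted p = 8.9e-06) and by 0.45 ± 0.14 in HCR (adjusted p = 0.00729), but the HCR call was lost with the muscle and fat means, the interquartile range or the Actb difference as a covariate (0.39, 0.43 and 0.14). Without HCR sham 0432 alone the HCR change of Cd36 was 0.23 (adjusted p = 0.0262). Carnitine acetyltransferase, Crat, which handles short chains, fell in HCR (-0.23 ± 0.06, adjusted p = 0.00144) and changed by 0.00 ± 0.06 in LCR. Cpt2, the inner carnitine palmitoyltransferase, rose in LCR (0.23 ± 0.09, adjusted p = 0.0276) and changed by -0.01 ± 0.09 in HCR; the LCR call was lost without LCR sham 0446 (adjusted p = 0.0769).

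Cpt1a, the liver-type outer carnitine palmitoyltransferase, had means of 526 ± 101 (SD, n = 7) and 455 ± 65.8 (n = 12) in HCR sham and smoke and of 418 ± 37.5 (n = 7) and 453 ± 62.7 (n = 12) in LCR sham and smoke. Its changes were -0.19 (95% interval -0.39 to 0.00, adjusted p = 0.0935) in HCR and 0.10 (-0.09 to 0.29, adjusted p = 0.381) in LCR, and a second probe set gave 0.02 and 0.33, neither called. Without HCR sham 0439, its lowest array, Cpt1a was called lower in HCR (-0.27, adjusted p = 0.0175). Cpt1b, the muscle-type form, tracked the arrays rich in muscle: HCR sham 0433 read 317 against 18.0 to 52.5 on the other HCR sham arrays, LCR sham 0442 read 181, and HCR smoke 0415, 0410, 0417 and 0414 read 96.7, 81.1, 43.8 and 41.0. In LCR smoke lungs Cpt1b lay between 20.3 and 28.5. Without the 6 arrays its changes were -0.08 in HCR and 0.03 in LCR, in place of -0.20 and -0.30. Acsl1, which activates long-chain fatty acids, changed by -0.08 ± 0.14 and 0.03 ± 0.14, and Slc25a20, the carnitine-acylcarnitine carrier, by -0.09 ± 0.09 and 0.12 ± 0.09, none of them called.

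Of the 5 acyl-CoA dehydrogenases, which open each round of oxidation, 2 fell in HCR, and 1 rose and 1 fell in LCR. Acadm, for medium chains, fell in both lines, from 862 to 1353 (median 916) to 722 to 869 (median 786) in HCR and from 770 to 1041 (median 833) to 694 to 816 (median 739) in LCR. The groups overlapped slightly in both lines, and the changes were -0.32 ± 0.06 (adjusted p = 8.3e-05) and -0.22 ± 0.06 (adjusted p = 0.00426). Acadvl, for very long chains, fell in HCR from a mean of 292 ± 49.2 (SD, n = 7) to 232 ± 24.7 (n = 12), a change of -0.31 ± 0.07 (adjusted p = 0.000308). In LCR its means were 260 ± 19.3 and 244 ± 20.5, a change of -0.09 ± 0.07 (adjusted p = 0.283), and the difference of the changes was 0.22 (95% interval 0.03 to 0.41, adjusted p = 0.192). Acadl and Acads, for long and short chains, were called in neither line (-0.08 and -0.17 in HCR, 0.07 and 0.01 in LCR). Without the 6 arrays rich in muscle or fat, Acadl rose in LCR (0.18, adjusted p = 0.0214). Acads in HCR lay close to the threshold (adjusted p = 0.0536) and was called lower with the Actb difference as a covariate (-0.24) and without HCR sham 0432, 0434 or 0439, HCR smoke 0410 or 0418, or LCR smoke 0421 (-0.21 to -0.17). Acad11, a dehydrogenase of very long chains, rose in LCR from 114 to 128 (median 117) to 129 to 169 (median 146). All 12 smoke arrays exceeded all 7 sham arrays (0.31 ± 0.05, adjusted p = 4.5e-06), while HCR gave 135 to 189 (median 171) and 148 to 189 (median 169), a change of 0.02 ± 0.05.

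Electron transfer from these dehydrogenases to the respiratory chain runs through Etfa and Etfb, the subunits of electron transfer flavoprotein, and Etfdh, its oxidoreductase. Etfa rose in LCR (0.16 ± 0.06, adjusted p = 0.0328) from a range of 592 to 840 to 677 to 798, with overlap, and was not called without LCR sham 0441, 0443, 0445 or 0446 (0.14 to 0.15). Etfdh fell in HCR (-0.23 ± 0.09, adjusted p = 0.0415) from 169 to 373 to 153 to 210, and without HCR sham 0433, the highest array, it changed by -0.10 (adjusted p = 0.245). It was not called either without HCR sham 0434 or 0435 or HCR smoke 0411, 0413, 0414 or 0419 (-0.23 to -0.21). Etfb was called in neither line, at -0.13 ± 0.06 and 0.09 ± 0.06. It was called lower in HCR without HCR sham 0439 (-0.17, adjusted p = 0.0301) and higher in LCR with median-centred arrays, array weights or the interquartile range as a covariate (0.15, 0.14 and 0.20).

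Of the 5 genes of the inner steps of the mitochondrial spiral, 3 fell in HCR, and 2 rose and 1 fell in LCR, while no difference between the lines' changes was called. Hadha and Hadhb, the subunits of the trifunctional protein that handles long chains, both rose in LCR. Their genes start 301 bases apart on opposite strands. Hadhb ranged from 1073 to 1295 (median 1141) under sham and from 1311 to 1514 (median 1454) under smoke in LCR, without overlap (0.31 ± 0.06, adjusted p = 2.9e-05). Hadha went from a mean of 662 ± 40.8 (SD, n = 7) to 747 ± 41.9 (n = 12) in LCR (0.17 ± 0.05, adjusted p = 0.00877) and from 710 ± 107 (n = 7) to 680 ± 42.1 (n = 12) in HCR (-0.05 ± 0.05, adjusted p = 0.465). Hadhb in HCR changed by 0.10 ± 0.06 (adjusted p = 0.148) and, without the 6 arrays rich in muscle or fat, by 0.19 ± 0.05 (adjusted p = 0.00148), and by 0.18 without HCR sham 0433 alone (adjusted p = 0.000738). Echs1, the short-chain hydratase, fell in both lines (-0.25 ± 0.05 in HCR, adjusted p = 0.000146, and -0.15 ± 0.05 in LCR, adjusted p = 0.0174), the LCR call being lost without LCR sham 0442 (adjusted p = 0.0741). The LCR call of Echs1 was also lost with median-centred arrays (-0.09) and array weights (-0.10). With the interquartile range as a covariate, Echs1 was called in neither line (-0.14 in HCR and -0.08 in LCR). Hadh, the short-chain hydroxyacyl-CoA dehydrogenase, and Acaa2, the mitochondrial thiolase, fell in HCR by 0.25 and 0.40 on the log2 scale (adjusted p = 0.0128 and 0.00138) and changed by -0.02 and -0.15 in LCR, where neither was called. Hadh lost its call without HCR sham 0433 (-0.16, adjusted p = 0.0714).

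All 4 auxiliary enzymes that prepare the double bonds of unsaturated fatty acids for oxidation fell in HCR. Ech1, a dienoyl-CoA isomerase, ranged from 1307 to 2244 (median 2013) in HCR sham and from 1060 to 1655 (median 1388) in HCR smoke lungs. Eci1, an enoyl-CoA isomerase, ranged from 500.0 to 777 (median 583) and from 367 to 500 (median 443). The Ech1 groups overlapped only through HCR sham 0432, the array of poorer RNA quality, which read 1307. The other HCR sham arrays read 1676 to 2244, above every HCR smoke array. The Eci1 groups met only at 500. The changes were -0.50 ± 0.09 for Ech1 (adjusted p = 2.5e-05) and -0.43 ± 0.06 for Eci1 (adjusted p = 8.9e-07). Eci2, the peroxisomal and mitochondrial isomerase, and Decr1, the dienoyl-CoA reductase, fell by 0.44 and 0.36 on the log2 scale (adjusted p = 0.000123 and 0.0037), and the Decr1 call was lost without the 6 arrays rich in muscle or fat (-0.24, adjusted p = 0.0719). In LCR, Eci1 fell from 505 to 605 (median 567) to 386 to 490 (median 448), without overlap (-0.32 ± 0.06, adjusted p = 4.5e-05). The other 3 were not called there, at -0.19 for Ech1, -0.08 for Eci2 and 0.05 for Decr1, and the differences of their changes from HCR were not called either (0.31, 0.36 and 0.41, adjusted p = 0.171, 0.113 and 0.111). Ech1 in LCR lay near the threshold (adjusted p = 0.0702) and was called lower after quantile normalization, with only the groups compared, with array weights, with the muscle and fat or the Actb covariate, and without HCR sham 0432 or LCR smoke 0428 or 0429 (-0.28 to -0.19).

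Among the 3 measured members listed under peroxisomal oxidation, changes were small. Larger falls of peroxisomal genes that are not members, Decr2 and Acot3, are given below. Ehhadh, the bifunctional enzyme, fell in HCR (-0.20 ± 0.08, adjusted p = 0.0347) from a range of 36.0 to 52.0 to 27.0 to 49.7, and lost the call when HCR sham 0432, 0433, 0434 or 0435 or HCR smoke 0413, 0414 or 0415 was left out (-0.19 to -0.17). Its change in LCR was -0.16 ± 0.08 (adjusted p = 0.0919), and -0.20 without LCR smoke 0428 (adjusted p = 0.0256). Acox2, the oxidase of branched chains, read at most 6.44 on any array, and its called rise of 0.05 ± 0.02 in HCR lies at that floor and was lost without HCR sham 0432, 0434 or 0439 or HCR smoke 0412, 0418 or 0419 (0.04 to 0.05). Acox3, a related oxidase, was called in neither line.

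The acyl-CoA thioesterases, which release free fatty acids from coenzyme A and are known as PPAR targets, held the largest fall of any member. Acot1, the cytosolic form, read 18.1, 40.2, 67.7, 109, 20.6, 86.6 and 9.09 on the HCR sham arrays (0432, 0433, 0434, 0435, 0436, 0438 and 0439). HCR smoke arrays ranged from 5.81 to 29.6 (median 9.79), LCR sham from 4.63 to 22.9 (median 14.1) and LCR smoke from 7.42 to 38.8 (median 10.5). High values were thus held by 4 of the 7 HCR sham rats, and the other 3 lay within the range of the smoke group. The HCR change was -1.03 ± 0.22 (adjusted p = 0.000311) and the LCR change 0.03 ± 0.22 (adjusted p = 0.929), with a difference between them of 1.06 (95% interval 0.42 to 1.70) that was not called (adjusted p = 0.0636). Acot2, the mitochondrial form encoded nearby on chromosome 6 (Acot2 at 109341426 to 109352818, Acot1 at 109367274 to 109375268, GRCr8), fell in HCR from 175 to 304 (median 248) to 131 to 199 (median 173), or -0.45 ± 0.09 (adjusted p = 0.000121). Its other probe sets fell by 0.36 and 0.22 on the log2 scale in HCR. In LCR, Acot2 changed by -0.19 ± 0.09 (adjusted p = 0.0703), and was called lower without LCR smoke 0425 or 0428 (-0.22 and -0.21). Its other probe sets gave 0.06 and -0.11 in LCR, neither called (adjusted p = 0.679 and 0.26).

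The uncoupling proteins, inner-membrane carriers linked to fatty acid use, rose in LCR. Ucp2, the widely expressed form, ranged from 625 to 789 (median 706) in LCR sham and from 794 to 917 (median 834) in LCR smoke lungs, without overlap (0.28 ± 0.06, adjusted p = 0.000177). In HCR it ranged from 718 to 1026 (median 828) and from 657 to 950 (median 788), with wide overlap and a change of -0.14 ± 0.06 (adjusted p = 0.0448) that was lost after quantile normalization or median centring (-0.10 in both) and when HCR sham 0434, 0436 or 0438 or HCR smoke 0408, 0409, 0413, 0415, 0417 or 0419 was left out (-0.15 to -0.10). Ucp3, the muscle-rich form, rose in LCR from 28.4 to 44.1 (median 41.7) to 40.8 to 63.3 (median 48.9), with overlap (0.28 ± 0.09, adjusted p = 0.0119), and changed by 0.08 ± 0.09 in HCR; its LCR call was lost with the interquartile range or the Actb difference as a covariate (0.19 and 0.21). The other Ucp3 probe set (mean intensity 36.9) gave 0.13 in LCR and was not called (adjusted p = 0.0786). The genes of Ucp2 and Ucp3 lie close together on chromosome 1 (Ucp3 at 164227910 to 164240893, Ucp2 at 164251373 to 164257742, GRCr8).

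**Figure D2:**
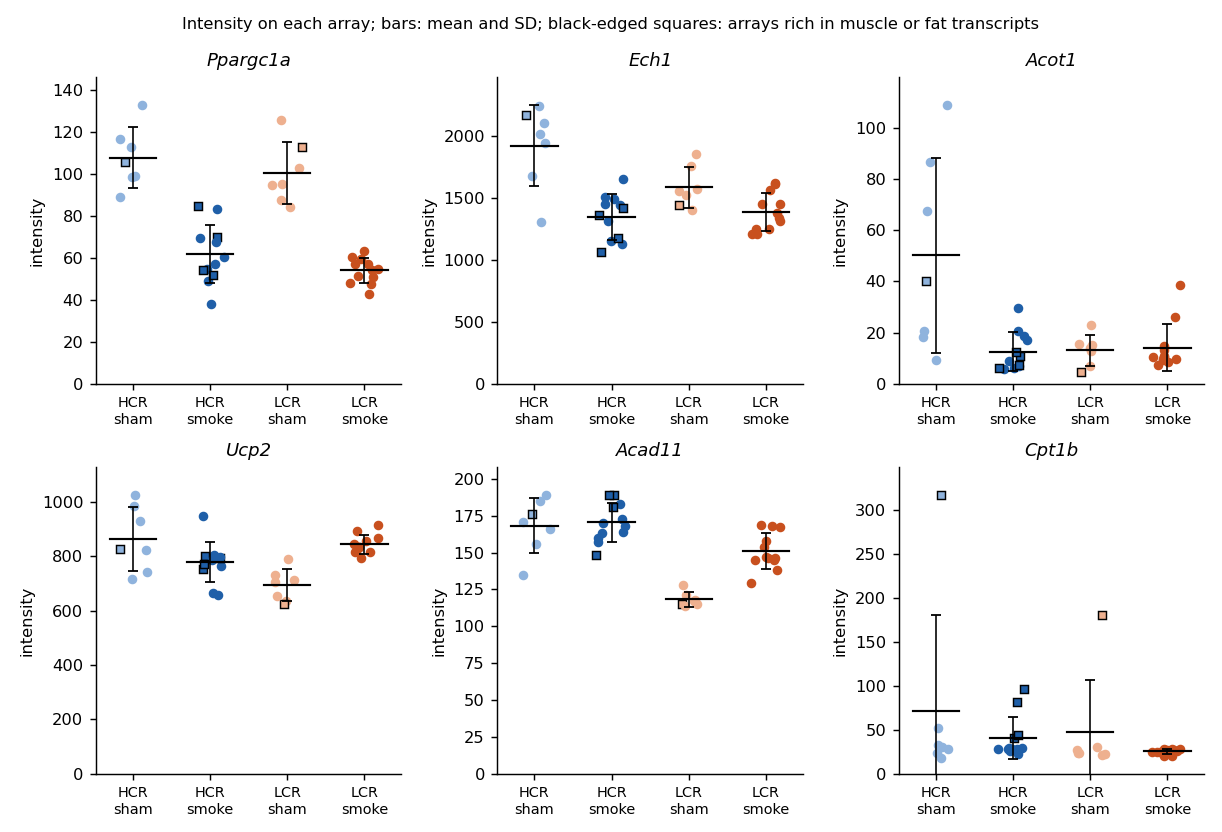
Intensity (y axis) of 6 genes on every array of the 4 groups (x axis), with group mean and SD; squares with a black edge are the 6 arrays rich in muscle or fat transcripts. Ppargc1a separates smoke from sham in both lines, Acot1 is high on 4 of 7 HCR sham arrays, and Acad11 is low in LCR sham lungs. The high Cpt1b values lie on squares, apart from 52.5 on HCR sham 0432.

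The smoke change differed between the lines for 2 of the 34 members, Ucp2 and Acad11, where 1.87% of all genes were called, 1.52% with a difference above 0. For Ucp2 the LCR change exceeded the HCR change by 0.42 ± 0.08 (95% interval 0.25 to 0.59, adjusted p = 0.00924). For Acad11 it did so by 0.30 ± 0.07 (0.15 to 0.44, adjusted p = 0.0294), a call lost without LCR sham 0445 (adjusted p = 0.0516) or HCR sham 0434 or 0435 (0.0635 and 0.0557), without the 6 arrays rich in muscle or fat (0.0619), with the muscle and fat means as covariates (0.0574) and after quantile normalization (0.0527). The median difference over the members was 0.22 (all genes 0.02), and 30 of 34 lay above 0 (42.2% of all genes lay below 0). This contrast uses the same arrays as the smoke changes above. Its HCR sham mean includes array 0433, rich in muscle and fat transcripts, where the median member lay 0.52 above its mean over all arrays. The median difference without 0433 is not given here. Without HCR sham 0432, the array of poorer RNA quality, 8 members were called, all higher: the added ones were Acot1 (1.18), Cd36 (0.57), Decr1 (0.46), Eci2 (0.42), Ech1 (0.40) and Hadha (0.27). Without HCR sham 0439, 5 members were called, the added ones being Acot1 (1.25), Decr1 (0.49) and Crat (0.28). The share of all genes called in these 2 fits is not given here, so the added calls cannot be read as particular to the members.

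Between the lines under sham, LCR lungs had less of Acot1, Acad11 and Ucp2 than HCR lungs, and no member was higher; 3.73% of all genes were called, 2.34% lower and 1.39% higher. Acad11 was 118 ± 4.98 in LCR sham (SD, n = 7) against 168 ± 18.3 in HCR sham (n = 7), with no overlap between 114 to 128 and 135 to 189 (-0.45 ± 0.06, adjusted p = 7.1e-06); it was the 1 member without overlap, against 0.858% of all genes. Ucp2 was 693 ± 59.2 against 865 ± 118, with overlap (-0.31 ± 0.07, adjusted p = 0.00628). Acot1 was 13.1 ± 6.03 against 50.1 ± 38.2 (-0.99 ± 0.25, adjusted p = 0.0186), and its call was lost without HCR sham 0434, 0435 or 0438 (adjusted p = 0.0568, 0.0595 and 0.0534), the arrays where it was highest. The Acot1 call was also lost without the 6 arrays rich in muscle or fat (-0.91, adjusted p = 0.0836). With the muscle and fat means as covariates it was lost as well (-0.89, adjusted p = 0.0849). The median difference was -0.15 (all genes -0.01), with 31 of 34 members below 0 (57.5% of all genes). The HCR sham mean again includes array 0433, where the median member lay 0.52 above its mean over all arrays. The median difference without 0433 is not given here. The same HCR sham arrays enter the smoke change in HCR and the difference of the smoke changes. When both lines' sham arrays were fitted alone, Acad11 was the 1 member called, Ucp2 and Acot1 reaching an adjusted p of 0.0759 and 0.143. Without HCR sham 0432, Cd36 (-0.48), Eci2 (-0.37) and Ech1 (-0.35) were called lower as well.

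**Figure D3:**
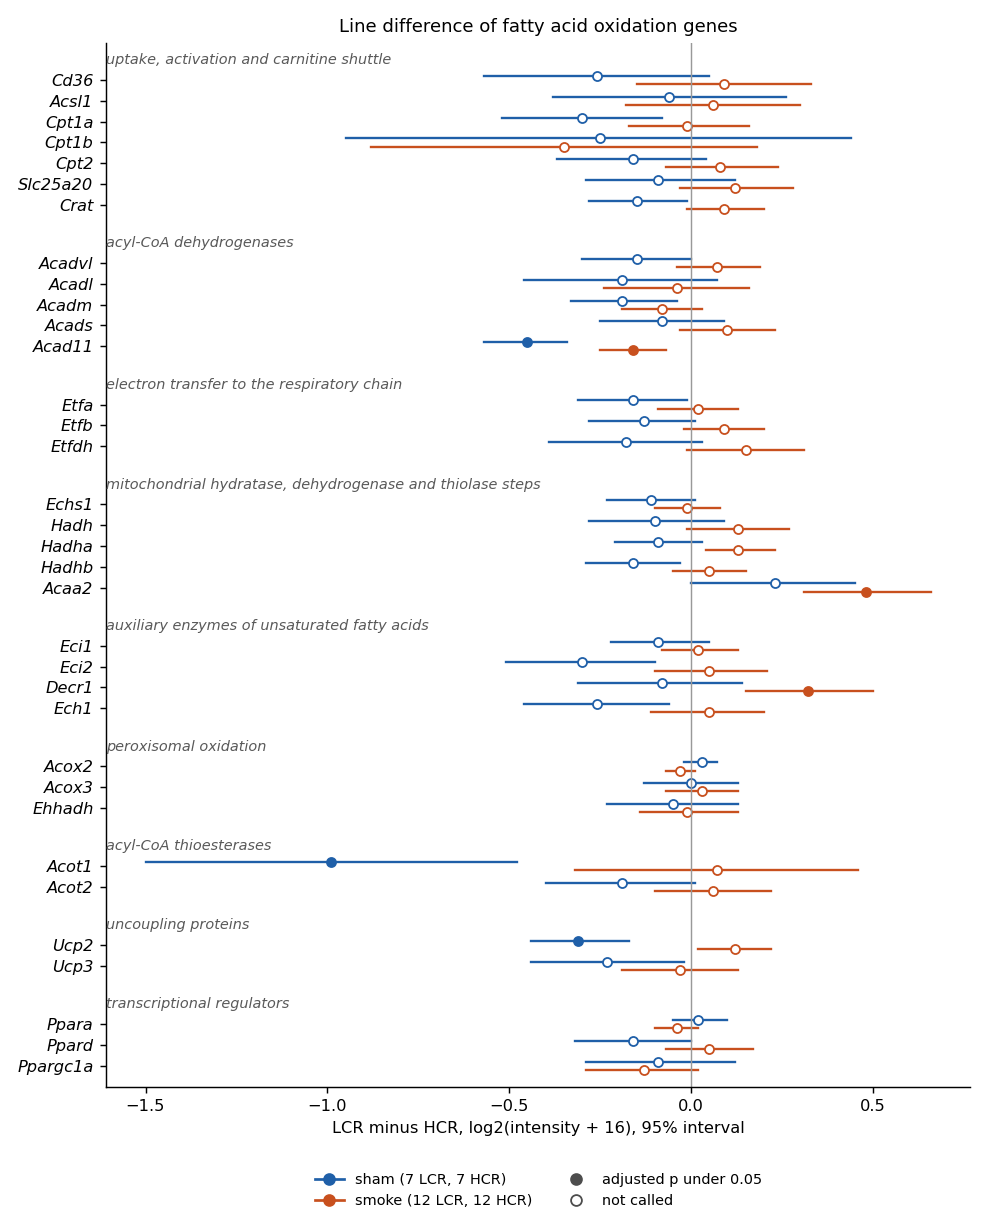
Difference of each gene between LCR and HCR lungs (x axis, log2(intensity + 16), LCR minus HCR) under sham (blue) and smoke (orange), in blocks by role; bars are 95% intervals and filled points have an adjusted p under 0.05. Under sham 31 of 34 points lie left of 0, with Acot1 at -0.99, and under smoke Acaa2 and Decr1 are filled to the right of 0.

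Under smoke, Acaa2 and Decr1 were higher and Acad11 lower in LCR than in HCR, where 6.32% of all genes were called, 4.61% higher and 1.70% lower. Acaa2 ranged from 385 to 646 (median 482) in HCR smoke and from 578 to 839 (median 704) in LCR smoke lungs, with a small overlap (0.48 ± 0.09, adjusted p = 0.000746). The other, dimmer Acaa2 probe set (mean intensity 21.3) gave -0.07 here (adjusted p = 0.473), and under sham it was lower in LCR (-0.29, adjusted p = 0.0196) where the one used gave 0.23. With the mean of both probe sets the difference under smoke was 0.20 (adjusted p = 0.0451). Decr1 ranged from 373 to 512 (median 428) and from 472 to 630 (median 539) in the same order (0.32 ± 0.09, adjusted p = 0.02). The groups overlapped for both genes, as for every member, while they did not for 0.0844% of all genes. Acad11 was 151 ± 12.7 (SD, n = 12) in LCR against 170 ± 13.0 (n = 12) in HCR (-0.16 ± 0.04, adjusted p = 0.0247). Without the 6 arrays rich in muscle or fat, Acaa2 was the 1 member called, Decr1 and Acad11 reaching an adjusted p of 0.0725 and 0.101. The median difference over the members was 0.05, against 0.01 over all genes.

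**Figure D4:**
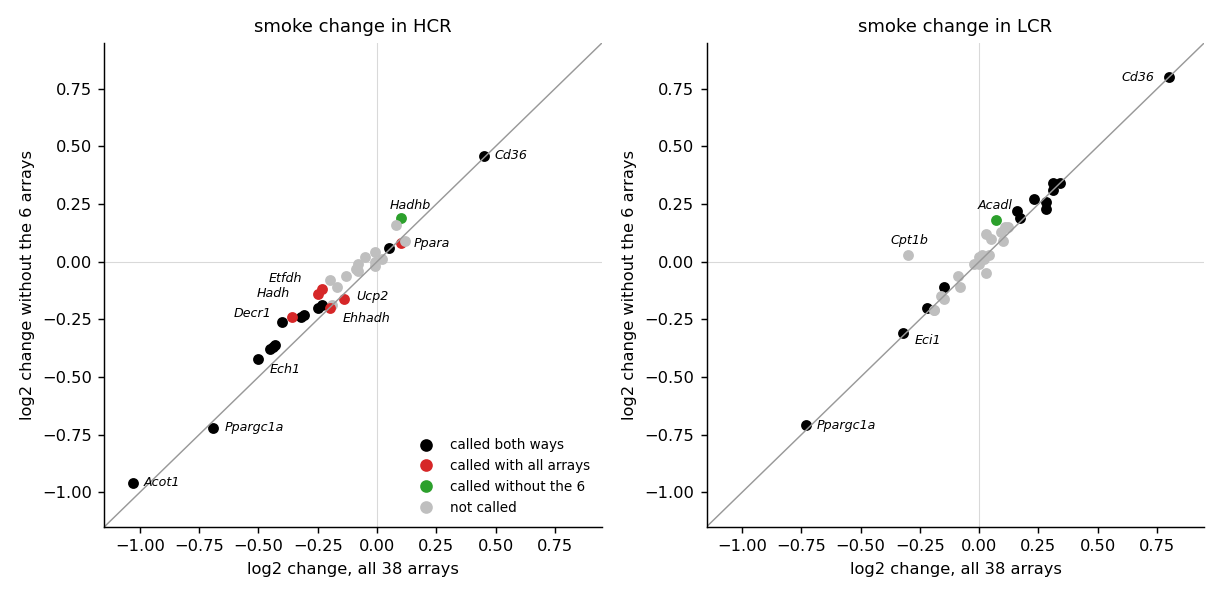
Change of each gene between smoke and sham without the 6 arrays rich in muscle or fat (y axis) against the change with all 38 arrays (x axis), both in log2(intensity + 16), in HCR (left) and LCR (right). In HCR most points below 0 lie above the diagonal, so their falls were smaller without the 6 arrays, while Ppargc1a and Cd36 stay near it.

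The arrays rich in muscle or fat moved with the HCR result. Without all 6, 11 members fell and 3 rose in HCR (median change -0.11 in place of -0.18), and 10 rose and 4 fell in LCR (median 0.03). The share and the median of all genes in that fit are not given here. The smaller HCR count therefore cannot be read as particular to the members. Ech1, Eci1, Eci2, Acot1, Acot2, Acadm, Acadvl, Acaa2 and Ppargc1a were still called lower in HCR, at -0.42, -0.36, -0.37, -0.96, -0.38, -0.24, -0.23, -0.26 and -0.72. Array 0433 alone had a median member deviation of 0.52, whereas the remaining HCR sham arrays had -0.09 to 0.16. The skeletal muscle list means ranged from -0.21 to 4.59 in HCR sham and from -0.20 to 0.33 in HCR smoke arrays, the fat cell means from -0.05 to 1.94 and from -0.20 to 0.37. With the muscle and fat list means as covariates, 11 members fell and 1 rose in HCR. Fewer of all genes were called in that fit as well. The interquartile range of the log2 values, 2.99 ± 0.04 (SD, n = 7) on HCR sham and 2.86 ± 0.06 (n = 12) on HCR smoke arrays, moved with exposure as well, and as a covariate it left 4 members called lower and 0 higher, with 3023 of all genes called in place of 6830.

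**Figure D5:**
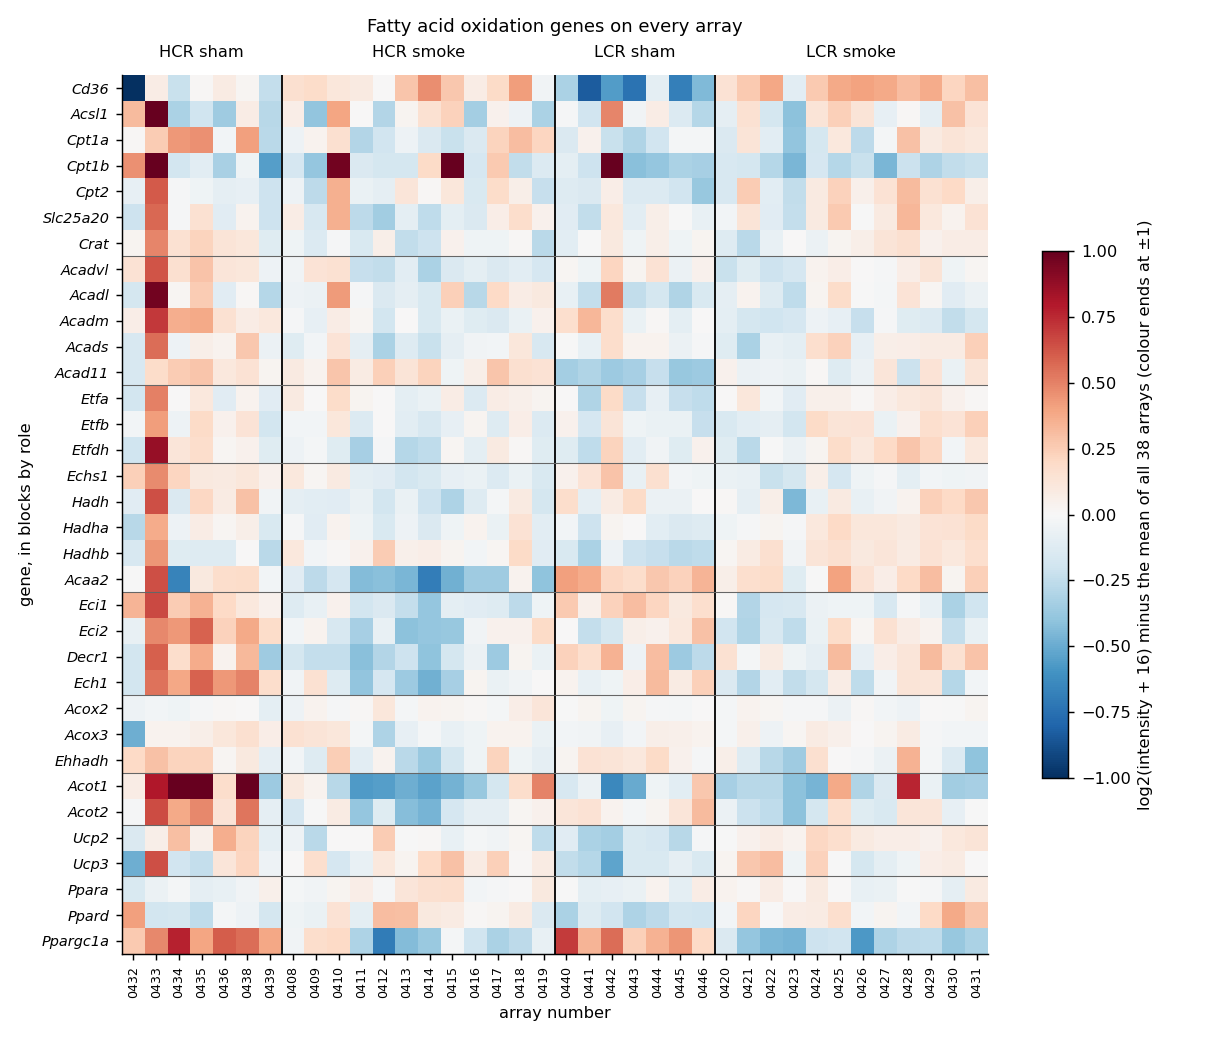
Each of the 34 genes (y axis, blocks by role) on each of the 38 arrays (x axis, by group), as log2(intensity + 16) minus the mean of all arrays; red is above and blue below the mean, and the scale ends at ±1. Array 0433 is mostly red, HCR smoke arrays are mostly blue for Ech1, Acaa2 and Acot1, and Acad11 is blue throughout LCR sham.

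Members varied more among the HCR sham arrays, 0433 included, than in the other groups. On 0433 the median member deviation was 0.52, against -0.09 to 0.16 on the other HCR sham arrays. The SD without 0433 was not computed. The median SD of the members on the log2 scale was 0.23 in HCR sham, 0.14 in HCR smoke, 0.12 in LCR sham and 0.14 in LCR smoke, where all genes had 0.12, 0.12, 0.10 and 0.11. Cpt1b had the highest SD of the members in HCR sham, HCR smoke and LCR sham (1.13, 0.50 and 0.87), and Acot1 in LCR smoke (0.36). Of the 34 members, 27 had a mean intensity of at least 64 and 7 were dimmer. Further probe sets, 14 in all, existed for 10 members, and 11 of these had a mean intensity under 64.

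Other genes of the pathway, from a list of 50 of which 45 were measured, were called about as often as all genes: 15 fell and 6 rose in HCR (46.7%), and 12 rose and 8 fell in LCR (44.4%). Pdk4, the kinase that switches fuel use from glucose to fat, ranged from 184 to 565 (median 303) in HCR sham and from 99.5 to 268 (median 165) in HCR smoke lungs, with overlap (-0.88 ± 0.19, adjusted p = 0.000384). In LCR it was 178 ± 25.9 (SD, n = 7) under sham and 143 ± 46.4 (n = 12) under smoke (-0.32 ± 0.19, adjusted p = 0.164). Angptl4, a PPAR target that inhibits lipoprotein lipase, fell in HCR (-0.71 ± 0.23, adjusted p = 0.00973; without the 6 arrays -0.62, adjusted p = 0.0517) and changed by -0.02 ± 0.23 in LCR. Plin2, which coats lipid droplets, rose in both lines (0.22 ± 0.08, adjusted p = 0.0293, and 0.44 ± 0.08, adjusted p = 5.2e-05). Pparg, the PPAR of fat cells and alveolar macrophages, rose in LCR (0.35 ± 0.09, adjusted p = 0.00143) and changed by -0.12 ± 0.09 in HCR.

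By smallest p, the HCR falls of Slc27a1, a fatty acid transporter (-0.39 ± 0.06, adjusted p = 2.7e-06), and Decr2, the peroxisomal dienoyl-CoA reductase (-0.36 ± 0.06, adjusted p = 4.2e-06), and the rise of Slc27a4, another transporter (0.30 ± 0.05, adjusted p = 1.9e-05), came first. In LCR, Acot3, a peroxisomal thioesterase, fell (-0.46 ± 0.06, adjusted p = 3.6e-07), while Esrra, the estrogen-related receptor that works with Ppargc1a, and Acsl4, which activates arachidonic acid, rose (0.27 ± 0.04 and 0.65 ± 0.10, adjusted p = 5.0e-07 and 3.8e-06). Between the lines under sham, Pparg, Hsd17b4 (the peroxisomal bifunctional protein) and Pdk4 were lower in LCR (-0.46, -0.28 and -0.86, adjusted p = 0.00637, 0.0165 and 0.0191) and none of the 45 was higher. Under smoke, Acot3 and Acad9, a dehydrogenase that also assembles complex I, were lower in LCR (-0.32 and -0.27, adjusted p = 0.000429 and 0.0363) and Plin2 was higher (0.30, adjusted p = 0.0106). The smoke change of Hsd17b4 and Pparg was more positive in LCR than in HCR by 0.38 ± 0.09 and 0.48 ± 0.13 (adjusted p = 0.0209 and 0.0426); neither passed without the 6 arrays rich in muscle or fat (0.32 and 0.41, adjusted p = 0.125 and 0.17).

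On the single HCR sham arrays, Acot1, Pdk4 and Angptl4 can be read side by side. Acot1 was 67.7, 109 and 86.6 on arrays 0434, 0435 and 0438, where Pdk4 read 561, 293 and 372 and Angptl4 148, 150 and 151. On 0439, Acot1 read 9.09, Pdk4 184 and Angptl4 43.1, each the lowest of its group. On 0432 and 0436, Acot1 read 18.1 and 20.6, Pdk4 225 and 303, and Angptl4 61.4 and 89.1, and on 0433 the 3 genes read 40.2, 565 and 132. Acot1 and Angptl4 thus had their 3 highest values on the same arrays, whereas Pdk4 was highest on 0433 and 0434.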

How the data were processed

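Lung RNA of 38 rats was measured on 1 Affymetrix rat array each, and the deposited table gives the authors' intensity on a linear scale for 31099 probe sets, from 2.09 to 11558. Their summarisation and normalization: not given in the sources used here; a step that pulls arrays together could shrink differences. After 57 control probe sets were left out, 20826 had exactly 1 gene symbol, 436 several and 9780 none, and 14217 genes remained. Values were taken as log2(intensity + 16) with no further scaling and no filter. Group means were fitted with limma 3.58.1 (R 4.3.3) over all 4 groups (34 residual degrees of freedom), two-sided, with Benjamini-Hochberg adjustment over all genes and a threshold of 0.05; the code was tested on simulated data. The number of arrays limits the precision, and the labels give separate animals. Any member may be named; levels are given for the members with the 3 largest called changes per direction and a set of fixed genes, and from the other pathway genes up to 3 per comparison by smallest p and a set of fixed genes are named. The members and lists were chosen with earlier results of these data known. Alternatives covered scaling, pseudocount, filter, probe set choice, samples, variance model, covariates and each array left out; the removal of HCR sham 0432 and 0433 together was chosen after seeing the data.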

Additional observations from a re-analysis of the deposited data

Results flagged for a closer look

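Of 68 sets of 7 sham arrays examined (34 genes in 2 lines), 11 held an array whose gap to the nearest other, as a share of the group's range, exceeded the Dixon critical value of 0.568, where chance gives about 1 in 20. HCR sham 0433, the array richest in skeletal muscle and fat transcripts, was highest for Cpt2 (0.766, intensity 300), Cpt1b (0.693, 317), Etfdh (0.648, 373), Hadhb (0.617, 1829), Etfa (0.584, 1047) and Acadl (0.568, 1150). LCR sham 0442, the array richest in heart muscle transcripts of its group, was highest for Cpt1b (0.869, intensity 181) and Acadl (0.724, 839). HCR sham 0432, the array with the high Actb 3' minus 5' difference, was lowest for Acox3 (0.810, intensity 14.7) and Cd36 (0.803, 364) and highest for Ppard (0.646, 134). The part of muscle, fat and RNA quality in these values was not tested.

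The smoke change differed between the lines by an interaction term for 4 genes of the pathway. It was more positive in LCR by 0.42 for Ucp2, 0.30 for Acad11, 0.38 for Hsd17b4 and 0.48 for Pparg. Of these, only Ucp2 was also called without the 6 arrays rich in muscle or fat.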

How the results depend on the processing

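Under all alternatives run, these calls held: Acadm, Eci1, Ech1 and Ppargc1a in HCR; Cd36, Acadm, Acad11, Hadha, Hadhb, Eci1, Ucp2, Ppard and Ppargc1a in LCR; Acad11 between the lines under sham; Acaa2 under smoke, though at 0.20 in place of 0.48 with the mean of its 2 probe sets; and Ucp2 for the difference of the smoke changes. Over the single genes, 1922 values kept their call, 109 lost it and 1 turned: Ehhadh in HCR reached 0.05 (adjusted p = 0.738) once the interquartile range entered as a covariate. The members called in HCR numbered 19, and 12 with the muscle and fat covariates and 4 with the interquartile range, where all genes called fell from 6830 to 5049 and 3023. Under sham 3 members differed between the lines, and 1 with only the groups compared, or 6 with median-centred arrays, array weights, the Actb covariate or HCR sham 0432 and 0433 left out together. Under smoke 3 differed, and 7 with array weights and 1 without the 6 arrays rich in muscle or fat. For the difference of the smoke changes 2 were called, and 13 with array weights (1537 of all genes in place of 266), 4 with median-centred arrays, 5 with the Actb covariate or without HCR sham 0432 and 0433, and 1 after quantile normalization, without the 6 arrays or with the muscle and fat covariates. Leaving out single arrays gave 16 to 21 members in HCR, 11 to 16 in LCR, 2 to 6 under sham, 3 to 4 under smoke and 1 to 8 for the difference. Except where printed, the shares of all genes called under these alternatives are not given here. Apart from fewer samples or a covariate that moves with exposure, the cause was not tested. No paired analysis was possible because the groups share no replicate numbers. Acox2 and Ppara, with mean intensities under 10, allow little beyond a bound.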

Other observations

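Probe sets shared by several genes stayed out of the gene values and were fitted with all probe sets. The probe set shared by Acaa1a and Acaa1b, peroxisomal thiolases, fell in HCR from 275 ± 42.7 (SD, n = 7) to 231 ± 30.0 (n = 12), a change of -0.23 ± 0.07 (adjusted p = 0.00752), and in LCR gave 241 ± 20.1 and 240 ± 15.4. The probe set shared by Cd36 and Cd36l1 rose in both lines, by 0.24 ± 0.05 in HCR (adjusted p = 0.000524) and 0.54 ± 0.05 in LCR (adjusted p = 5.3e-10), and its smoke change was more positive in LCR by 0.31 ± 0.07 (adjusted p = 0.0291). Under sham it was lower in LCR (-0.32 ± 0.06, adjusted p = 0.00127). The probe set shared by Eci2 and Eci3 fell in HCR (-0.44 ± 0.08, adjusted p = 3.9e-05), as did that shared by Acot1 and Acot2 (-0.45 ± 0.12, adjusted p = 0.00471), while in LCR they gave -0.06 and -0.02. Which of the genes gave these signals cannot be told apart.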
